A study of Homo sapiens with 6 samples.

Results

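G2/M and mitosis genes are the genes that a dividing cell switches on to enter mitosis, build the spindle, separate the chromosomes and split. The set described here was a list of 53 such genes, taken by name, out of 58336 genes in the counts table, and all 53 passed the filter on low counts that left 15673 genes for testing. RNA from 6 libraries of SUM159, a human triple-negative breast cancer line, was sequenced after capture of polyadenylated RNA. The labels split the cells by ITGB4, the integrin beta-4 subunit, and the series title concerns the waking of dormant cancer cells by inflammation. The groups were ITGB4-low cells grown in dishes (the controls, n = 2, clones 1 and 3), ITGB4-low cells recovered from mouse lungs that also held LM2 cells (n = 2, clones 1 and 3), ITGB4-low clone 1 recovered from mouse lungs after bleomycin had been given by the trachea (n = 1), and ITGB4-high cells grown in dishes (n = 1).

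LM2 cells derive from MDA-MB-231, a second human breast cancer line, and were selected for growth in lung. Bleomycin, an antitumour antibiotic, damages lung tissue and causes inflammation there. The cells of all 3 lung libraries were injected by tail vein, freed from dissociated lungs, kept in a dish overnight and sorted by their red tdTomato label. The control cells were not taken through these steps, and no lung library without LM2 or bleomycin was analysed here, so the trigger, the lung and the recovery cannot be told apart. Each ITGB4-low group rests on 1 library per clone, the bleomycin group exists for clone 1 alone, and the text on treatment names clone 1 only, so clone 3 of the LM2 group rests on its title. The labels do not say whether libraries came from separate cultures or mice. In fits that keep the 4 groups apart, the p-values measure only the spread within the control pair and the LM2 pair. Each pair is of clone 1 and clone 3. Where all lung libraries are joined, the spread also holds the difference between the bleomycin and LM2 libraries. The spread within the pairs may hold clone differences and technical ones, which cannot be told apart.

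As background, a cell enters mitosis when CDK1, bound to B-type and A-type cyclins, is switched on by CDC25 phosphatases. Kinesins and spindle proteins then form the spindle, kinetochore proteins tie chromosomes to it, and the checkpoint holds back the anaphase-promoting complex until all are attached. Most of these transcripts peak together late in the cycle, which is why their sum is often read as a measure of dividing cells in breast tumours. In bulk RNA, a larger share of cells in G2 or mitosis and more RNA per such cell cannot be told apart.

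Many promoters of this family share a pair of short elements, the CCAAT box and the cell cycle genes homology region, written here as TTTGAA. In RefSeq promoters (GRCh38.p14, 250 bases before to 50 after the start), 46 of the 53 genes had an entry. TTTGAA or its reverse TTCAAA was found in 34 of the 46 (73.9%), against 15.2% of 35116 promoters of all genes and 10% of 10880 promoters of tested genes. CCAAT or its reverse ATTGG was found in 36 (78.3%, against 34.6% and 36.8%), and both in 28 (60.9%, against 5.9% and 4.18%). A CCAAT match can share its last letter with a TTTGAA match, and a match is a description of the sequence, not of binding. The 160 bases before the start are shown for 6 genes whose levels are given below, in lower case 5′ to 3′ on the gene's strand with matches on either strand in capitals: CCNB1 at chr5:69166990-69167149 (plus), CCNB2 at chr15:59104986-59105145 (plus), PLK1 at chr16:23678729-23678888 (plus), CDC20 at chr1:43358821-43358980 (plus), KIF18A at chr11:28108157-28108316 (minus) and TOP2A at chr17:40417897-40418056 (minus).
CCNB1: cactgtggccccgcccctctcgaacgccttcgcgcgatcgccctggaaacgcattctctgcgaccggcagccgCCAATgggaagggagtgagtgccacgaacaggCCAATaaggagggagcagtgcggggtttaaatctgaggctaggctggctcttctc
CCNB2: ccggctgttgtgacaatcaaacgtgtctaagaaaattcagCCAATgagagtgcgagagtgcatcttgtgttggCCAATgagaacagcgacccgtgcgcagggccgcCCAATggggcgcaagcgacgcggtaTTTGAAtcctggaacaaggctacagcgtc
PLK1: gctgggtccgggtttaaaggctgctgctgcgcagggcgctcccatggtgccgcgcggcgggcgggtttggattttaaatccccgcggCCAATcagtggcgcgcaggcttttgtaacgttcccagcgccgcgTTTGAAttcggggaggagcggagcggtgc
CDC20: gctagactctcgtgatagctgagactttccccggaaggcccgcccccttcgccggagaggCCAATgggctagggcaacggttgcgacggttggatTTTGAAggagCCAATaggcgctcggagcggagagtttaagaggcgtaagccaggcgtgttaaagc
KIF18A: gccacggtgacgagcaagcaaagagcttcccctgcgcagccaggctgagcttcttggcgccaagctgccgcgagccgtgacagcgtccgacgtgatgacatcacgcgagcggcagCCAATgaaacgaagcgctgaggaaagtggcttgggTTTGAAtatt
TOP2A: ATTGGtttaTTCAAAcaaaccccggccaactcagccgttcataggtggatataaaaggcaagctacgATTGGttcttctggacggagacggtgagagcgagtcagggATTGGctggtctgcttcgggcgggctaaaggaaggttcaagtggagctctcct
CCNB1 carried CCAAT matches and no TTTGAA in its window, while KIF18A, whose level differed from the rest of the set as described below, carried both. The 34 genes with TTTGAA had median log2 ratios to their own clone's control of -0.40, 0.24 and 0.56 in LM2 clone 1, LM2 clone 3 and bleomycin, and the 12 without it -0.03, 0.40 and 0.80.

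The libraries held between 13607953 and 22222121 counts, and levels below are counts scaled to a library of 1e6 with TMM factors (CPM), given for clone 1 and then clone 3 where 2 libraries share a group. ITGB4 itself stood at 25.9 and 24.6 CPM in the controls, 305 to 470 in the 3 lung libraries and 383 in ITGB4-high cells, in the direction of the labels for the dish-grown cells. The LM2 libraries stood far apart, with a biological coefficient of variation of 0.349 between them against 0.0815 between the controls. Summed markers of leukocytes were 4.27 to 4.98 CPM in the controls, 5.87 to 6.89 with LM2, 13.8 with bleomycin and 2.41 in ITGB4-high cells. Of 17 listed markers, 6 were at 0 in all libraries (C1QA, C1QB, C1QC and CD3E among them). Of the 6 tested leukocyte markers, 5 were above their own control with bleomycin, 6 in LM2 clone 3 and 3 in LM2 clone 1. Their median log2 ratios were 1.46, 0.18 and -0.39, and 48.1%, 48% and 46.9% of all genes were above. Of 7 lung epithelial markers, 3 were at 0 in all libraries, SFTPC and SCGB1A1 included, and the sum stayed between 1.84 and 3.87 CPM. The 1 tested lung epithelial marker had log2 ratios of 0.70, 0.65 and 0.60 to its own controls in LM2 clone 1, LM2 clone 3 and bleomycin. Endothelial markers summed to 73.3 and 108 CPM in the controls, nearly all of it KDR, and to 4.18 to 12.9 elsewhere. Of the 3 tested endothelial markers, 2 were above their own control with bleomycin, 1 in LM2 clone 3 and 2 in LM2 clone 1. Their median log2 ratios were 1.29, -0.42 and 0.35, and again 48.1%, 48% and 46.9% of all genes were above. The 8 listed markers of breast cancer lines summed to 4325 to 4960 CPM. Log2 ratios of the 6 tested ran from -1.15 to 1.18 in LM2 clone 1. They ran from -0.44 to 0.47 in LM2 clone 3 and -0.74 to 0.78 with bleomycin. LM2 cells are also of a human breast cancer line, so this sum cannot show that they were absent. The mitosis genes and the leukocyte sum were both highest in the bleomycin library, and the part of leukocytes in the result was not tested. All these markers are human genes read against hg38, while the lungs were of mice. Counts of 0 therefore cannot show that mouse cells were absent.

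Across the set, the 53 genes together took 7887 and 8766 CPM in the controls, 6445 and 10626 in the LM2 libraries of clones 1 and 3, 12393 in the bleomycin library and 6547 in ITGB4-high cells. The bleomycin library was the highest of the 6 for 40 of the 53 genes and LM2 clone 3 for 9. Of all tested genes, 14.2% and 8.65% were highest there. The lowest was ITGB4-high for 26 and LM2 clone 1 for 22, against 25.0% and 23.0% of all tested genes. Control clone 3 was highest for SPC25, BIRC5 and FOXM1, and LM2 clone 1 for KIF18A alone, against 20.9% and 20.7%. Per exon length, TOP2A had the highest mean level at 177 CPM per kilobase (RPKM), then CCNB1 at 129, TPX2 at 122 and CKS2 at 96.2, and PRC1 the lowest at 1.52. The ratio of the highest to the lowest library was largest for DLGAP5 at 4.54 and KIF20A at 4.25, and smallest for UBE2S at 1.27 and FOXM1 at 1.39. Because the strand setting of the counting is not known, reads of NCAPG, CENPN, FOXM1, KIF22, KIFC1 and PLK1 cannot be told apart from those of genes on the opposite strand, which share 12.5% to 33.1% of their exonic bases.

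**Figure D1:**
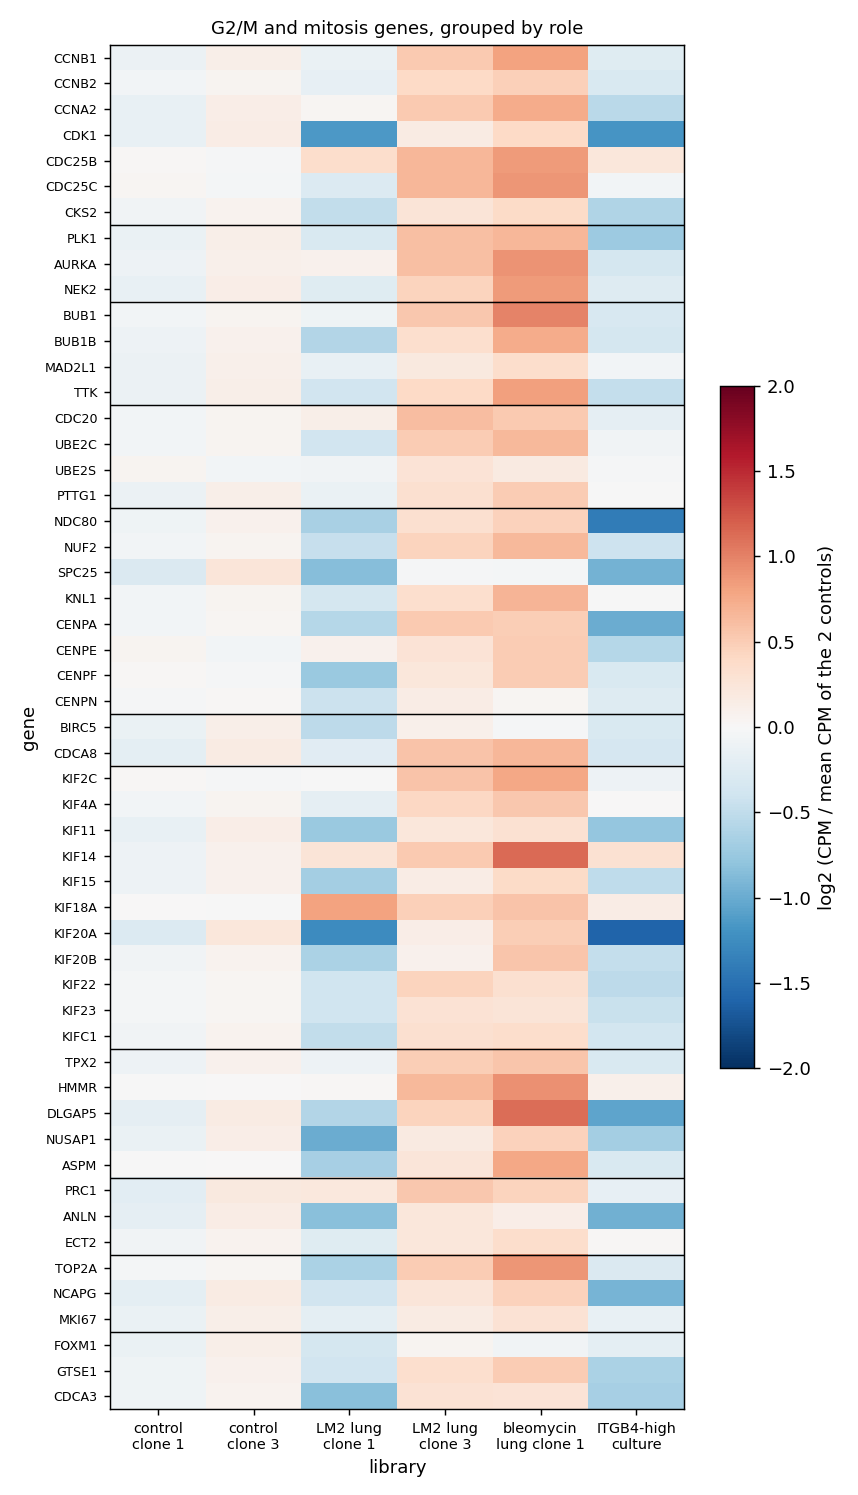
Each row is 1 of the 53 genes, grouped by role, each column 1 library, and the colour the log2 of its CPM over the mean of the controls. The bleomycin and LM2 clone 3 columns are mostly above the controls, and the LM2 clone 1 and ITGB4-high columns mostly below.

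Setting each lung library over the control of its own clone gave a split between the LM2 libraries. With bleomycin, 53 of 53 genes were higher, with a median log2 ratio of 0.61 (1.52-fold) and a range of 0.06 to 1.30, against 48.1% of all tested genes higher and an all-gene median of -0.02. In LM2 clone 3, 49 were higher and 4 lower (SPC25, BIRC5, KIF20A and FOXM1), with a median of 0.28, against 48% of all genes. In LM2 clone 1, 9 were higher and 44 lower, with a median of -0.28, against 46.9% of all genes higher. These are 1 library over 1 library each, so they have no replicate check.

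The commonest course was lower in LM2 clone 1, higher in LM2 clone 3 and higher with bleomycin, which 40 of the 53 genes took against 8.04% of all tested genes. None took the opposite split, higher in LM2 clone 1 and lower in LM2 clone 3 (16.2% of all genes). A group of 9 genes was above its own control in all 3 lung libraries, against 23.9% of all genes: CCNA2, CDC25B, AURKA, CDC20, CENPE, KIF14, KIF18A, HMMR and PRC1. None was below in all 3, against 29.1%. The bleomycin ratio was the highest of the 3 for 49 of the 53, against 30.3% of all genes. Ratios past 1.5-fold were seen in 30 genes with bleomycin, all higher, against 15% of all genes. In LM2 clone 3 they were 4, all higher, against 11.4% (CDC25B, CDC25C, KIF2C and HMMR). In LM2 clone 1 they were 10, of which KIF18A was higher and CDK1, CENPF, KIF11, KIF20A, NUSAP1, ASPM, ANLN, TOP2A and CDCA3 were lower, against 17.4% and 22.3% of all genes.

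**Figure D2:**
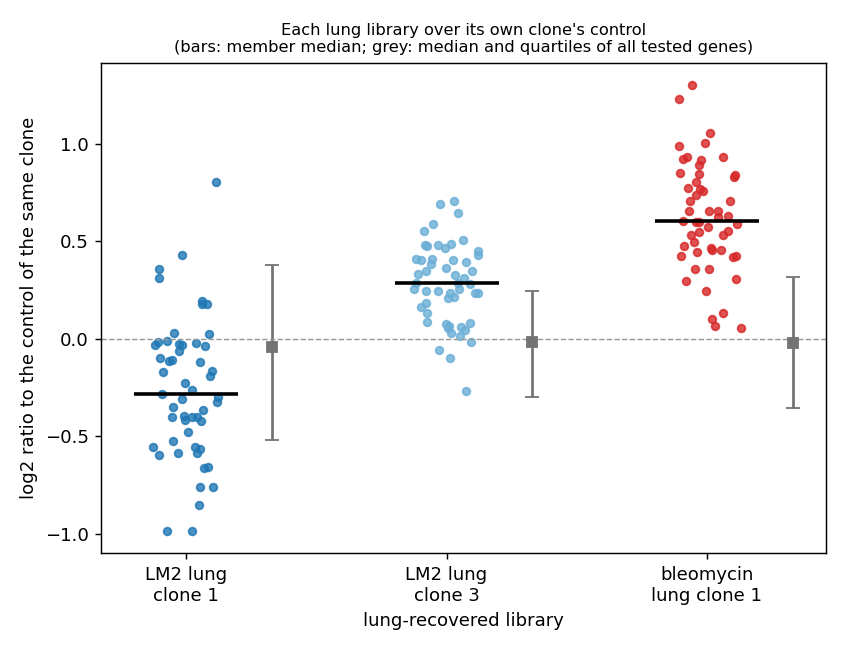
Each point is a mitosis gene's log2 ratio in 1 lung library to the control of the same clone, with the set's median as a bar and all tested genes as median and quartiles in grey. The set's medians are -0.28 in LM2 clone 1, 0.28 in LM2 clone 3 and 0.61 with bleomycin.

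The lowest and the highest of the lung libraries thus came from the same clone. Bleomycin clone 1 exceeded LM2 clone 1 in 52 of 53 genes, with a median ratio of 1.85-fold (51.2% of all genes higher), and KIF18A was the exception. It exceeded LM2 clone 3 in 41 of 53, with a median of 1.13-fold (48.9%). The controls also differed, clone 3 being above clone 1 in 46 of 53 with a median of 1.13-fold (55.8%). Against both controls at once, the bleomycin library was above in 49 genes and below in none, LM2 clone 3 likewise in 49 and none, and LM2 clone 1 above in 7 and below in 43, where 40.5%, 39.4% and 41.2% of all genes lay above and 44.9%, 41.9% and 47% below.

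The engine of mitotic entry, 7 genes, was highest with bleomycin for all of them, at a median of 1.77-fold the clone 1 control. CCNB1, cyclin B1, stood at 263 and 308 CPM in the controls, 259.5 and 410.4 in the LM2 libraries, 501 in the bleomycin library and 241 in ITGB4-high cells. CCNB2, the second B-type cyclin, stood at 117 and 126 CPM in control, 109 and 159.8 with LM2, 170.0 with bleomycin and 98.0 in ITGB4-high cells. Both followed the order of the set, with bleomycin and LM2 clone 3 above both controls and LM2 clone 1 just under them. CCNA2, cyclin A2, which drives S phase and the approach to mitosis, was at 106 and 129 CPM in the controls, 121 and 168 in the LM2 libraries, 197 in the bleomycin library and 80.5 in ITGB4-high cells. Its LM2 clone 1 level lay between the controls. CDK1, the kinase these cyclins bind, was at 135 and 166 CPM in control, 68.4 and 169.9 with LM2, 198 with bleomycin and 66.7 in ITGB4-high cells. It was at 0.506 of its own control in LM2 clone 1, among the lowest ratios of the set, and LM2 clone 3 was close to control clone 3. CDC25B, the phosphatase that starts CDK1 activation, was at 189 and 181 CPM in the controls, 235 and 292 in the LM2 libraries, 335 in the bleomycin library and 216 in ITGB4-high cells. All 3 lung libraries and ITGB4-high were above both controls, which no other gene of the engine shared. CDC25C, which completes that activation, was at 16.6 and 15.7 CPM in control, 13.4 and 25.7 with LM2, 29.9 with bleomycin and 15.6 in ITGB4-high cells. CKS2, a small CDK-binding subunit, had ratios of 0.750, 1.13 and 1.36 to its own controls in LM2 clone 1, LM2 clone 3 and bleomycin.

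The mitotic kinases PLK1, AURKA and NEK2 were all higher with bleomycin, with log2 ratios of 0.80, 1.00 and 0.99 to the clone 1 control. PLK1, the polo-like kinase of centrosome maturation, stood at 85.7 and 102 CPM in the controls, 76.2 and 143 in the LM2 libraries, 149.5 in the bleomycin library and 56.7 in ITGB4-high cells. AURKA, Aurora A, which acts at spindle poles, stood at 80.6 and 92.8 CPM in control, 92.2 and 132 with LM2, 162 with bleomycin and 67.9 in ITGB4-high cells. AURKA in LM2 clone 1 was between the controls, whereas PLK1 there was below both.

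Of the spindle checkpoint genes, which hold anaphase until chromosomes attach, 4 of 4 were lower in LM2 clone 1 and higher in the other lung libraries than their own controls. BUB1, a checkpoint kinase, was at 111 and 120.0 CPM in the controls, 109 and 168 in the LM2 libraries, 231 in the bleomycin library and 92.9 in ITGB4-high cells. With 2.08-fold its clone 1 control, it had one of the 4 highest bleomycin ratios, with AURKA, KIF14 and DLGAP5. TTK, the MPS1 kinase that starts the signal, was at 72.0 and 84.5 CPM in control, 60.0 and 103 with LM2, 138 with bleomycin and 56.0 in ITGB4-high cells. MAD2L1, the MAD2 protein that binds CDC20, varied less, at 81.8 and 95.6 CPM in the controls, 79.9 and 101 in the LM2 libraries, 113 in the bleomycin library and 85.4 in ITGB4-high cells. BUB1B had ratios of 0.718, 1.18 and 1.79 in LM2 clone 1, LM2 clone 3 and bleomycin, but 10.2% of its exonic bases also belong to the read-through gene BUB1B-PAK6.

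The route out of mitosis was represented by 4 genes. CDC20, the activator of the anaphase-promoting complex, was at 110.2 and 119.7 CPM in the controls, 125 and 176 in the LM2 libraries, 166 in the bleomycin library and 101 in ITGB4-high cells, with all 3 lung libraries above both controls and LM2 clone 3 the highest. UBE2C, its ubiquitin-conjugating enzyme, was at 52.5 and 56.6 CPM in control, 41.9 and 77.3 with LM2, 85.8 with bleomycin and 52.1 in ITGB4-high cells. PTTG1, securin, which restrains the enzyme that cuts cohesin, was at 59.7 and 70.0 CPM in the controls, 58.9 and 81.3 in the LM2 libraries, 92.6 in the bleomycin library and 64.3 in ITGB4-high cells. In UBE2C and PTTG1 the LM2 clone 1 level lay under both controls. UBE2S, which extends ubiquitin chains, stayed between 19.7 and 25.0 CPM in all libraries.

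Kinetochore and centromere genes had the lowest LM2 clone 1 values among groups of 4 or more, with a median of 0.726 of control and 7 of 8 lower. CENPA, the histone H3 variant of centromeres, was at 39.3 and 42.0 CPM in the controls, 27.3 and 58.6 in the LM2 libraries, 56.9 in the bleomycin library and 20.3 in ITGB4-high cells. CENPF, a large kinetochore protein, was at 645 and 629 CPM in control, 381 and 746 with LM2, 909 with bleomycin and 513 in ITGB4-high cells. In both, LM2 clone 1 was under both controls and LM2 clone 3 and bleomycin were above them. CENPE, the kinetochore motor, was at 247 and 227 CPM in the controls, 252 and 286 in the LM2 libraries, 338 in the bleomycin library and 160.2 in ITGB4-high cells, and was the one gene of this group not lower in LM2 clone 1. NDC80, which grips microtubules, was at 89.5 and 101 CPM in control, 60.5 and 119 with LM2, 131 with bleomycin and 36.1 in ITGB4-high cells, with ITGB4-high far under every other library. SPC25, a partner of NDC80, was at 20.6 and 29.8 CPM in the controls, 14.0 and 24.8 in the LM2 libraries, 24.5 in the bleomycin library and 13.1 in ITGB4-high cells, so no lung library exceeded control clone 3. NUF2, KNL1 and CENPN had bleomycin ratios of 1.63, 1.67 and 1.05, the last for a gene that overlaps others on the opposite strand.

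In the chromosomal passenger complex, BIRC5, survivin, was at 108 and 129 CPM in the controls, 82.3 and 128 in the LM2 libraries, 116 in the bleomycin library and 96.1 in ITGB4-high cells. Its lung levels did not exceed the control of clone 3. CDCA8, borealin, had ratios of 0.974, 1.32 and 1.80 to its own controls in LM2 clone 1, LM2 clone 3 and bleomycin.

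The 11 kinesins, motors that move along microtubules, were all above the clone 1 control with bleomycin, while 9 of 11 were below it in LM2 clone 1. KIF11, the motor that pushes spindle poles apart, was at 183 and 223 CPM in the controls, 122 and 237 in the LM2 libraries, 251 in the bleomycin library and 118 in ITGB4-high cells. KIF20A, which acts in cytokinesis, was at 109 and 154 CPM in control, 54.9 and 144 with LM2, 185 with bleomycin and 43.5 in ITGB4-high cells. Both had LM2 clone 1 and ITGB4-high under the controls. KIF2C, which takes microtubules apart at kinetochores, was at 96.1 and 93.5 CPM in the controls, 94.0 and 140.4 in the LM2 libraries, 162 in the bleomycin library and 87.9 in ITGB4-high cells, with LM2 clone 1 between the controls. KIF14, a cytokinesis kinesin, was at 79.8 and 90.9 CPM in control, 102 and 123 with LM2, 188 with bleomycin and 106 in ITGB4-high cells. All lung libraries and ITGB4-high were above both controls for KIF14. KIF18A, which damps chromosome oscillation at the plate, was at 53.9 and 53.7 CPM in the controls, 94.2 and 74.8 in the LM2 libraries, 80.3 in the bleomycin library and 59.6 in ITGB4-high cells. It was the one gene of the set with its highest level in LM2 clone 1.

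KIF18A was also the one gene of the set on chromosome 11, at chr11:28020620-28108308 (hg38, minus strand). In LM2 clone 1 the median log2 ratio of all 859 tested genes on chromosome 11 was 0.38, and those on chromosomes 4 and 13 were 0.29 and 0.20, against -0.04 for all genes. The KIF18A ratio there was 0.80 on the log2 scale, and 0.48 and 0.57 in LM2 clone 3 and bleomycin, where the chromosome 11 medians were -0.02 and 0.08. The part of the chromosome in the KIF18A level was not tested. After taking each gene's chromosome median away, 14 genes were higher in LM2 clone 1, 50 in LM2 clone 3 and 53 with bleomycin, and the set's medians were -0.26, 0.31 and 0.65.

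All 5 spindle assembly genes were above their own controls in LM2 clone 3 and with bleomycin. DLGAP5, which stabilises kinetochore fibres, was at 71.7 and 90.9 CPM in the controls, 54.2 and 111 in the LM2 libraries, 177 in the bleomycin library and 39.0 in ITGB4-high cells, a bleomycin ratio of 2.46, the highest of the set. TPX2, the activator of Aurora A, was at 371 and 423 CPM in control, 369 and 559.5 with LM2, 584 with bleomycin and 323 in ITGB4-high cells. ASPM, a spindle-pole protein, was at 284 and 288 CPM in the controls, 179.8 and 339 in the LM2 libraries, 486 in the bleomycin library and 232 in ITGB4-high cells. TPX2 in LM2 clone 1 was just under control clone 1, and ASPM there was under both controls. HMMR, a microtubule-binding protein of spindle poles, had ratios of 1.02, 1.56 and 1.89, and NUSAP1 of 0.555, 1.04 and 1.51, but 62.2% of the exonic bases of NUSAP1, a microtubule bundler, are shared with another gene on its strand.

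Among cytokinesis genes, ECT2, which activates RhoA at the cleavage furrow, was at 209 and 230.1 CPM in the controls, 186 and 258 in the LM2 libraries, 280.4 in the bleomycin library and 223 in ITGB4-high cells. PRC1, which bundles the central spindle, was at 6.29 and 8.35 CPM in control, 8.51 and 10.7 with LM2, 9.99 with bleomycin and 6.56 in ITGB4-high cells. The level of PRC1 is uncertain, since 57.6% of its exonic bases are shared with another gene on the same strand and its counts may have been divided. ANLN, anillin, had ratios of 0.632, 1.05 and 1.24.

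Of the 3 proteins of mitotic chromosomes, TOP2A, the topoisomerase that untangles sister chromatids, was at 985 and 1044 CPM in the controls, 652 and 1443 in the LM2 libraries, 1862 in the bleomycin library and 832 in ITGB4-high cells. The bleomycin library had 1.89 times the level of its control and LM2 clone 1 had 0.662. NCAPG, a condensin subunit, was at 117 and 151 CPM in control, 103 and 158 with LM2, 185 with bleomycin and 70.3 in ITGB4-high cells. MKI67, which encodes the Ki-67 antigen that coats mitotic chromosomes, was at 715 and 852 CPM in the controls, 685 and 879.8 in the LM2 libraries, 956 in the bleomycin library and 709 in ITGB4-high cells. Ki-67 thus spanned a narrow range, with LM2 clone 3 and bleomycin above control clone 3. Its ratios to its own controls were 0.957, 1.03 and 1.34 in LM2 clone 1, LM2 clone 3 and bleomycin.

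Of the 3 regulators of transcription and G2, FOXM1, the transcription factor that switches on many G2/M genes, was at 103 and 122 CPM in the controls, 88.1 and 117 in the LM2 libraries, 107 in the bleomycin library and 98.6 in ITGB4-high cells. No lung library exceeded control clone 3 for FOXM1. GTSE1 and CDCA3 had bleomycin ratios of 1.52 and 1.28, and LM2 clone 1 ratios of 0.821 and 0.591.

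**Figure D3:**
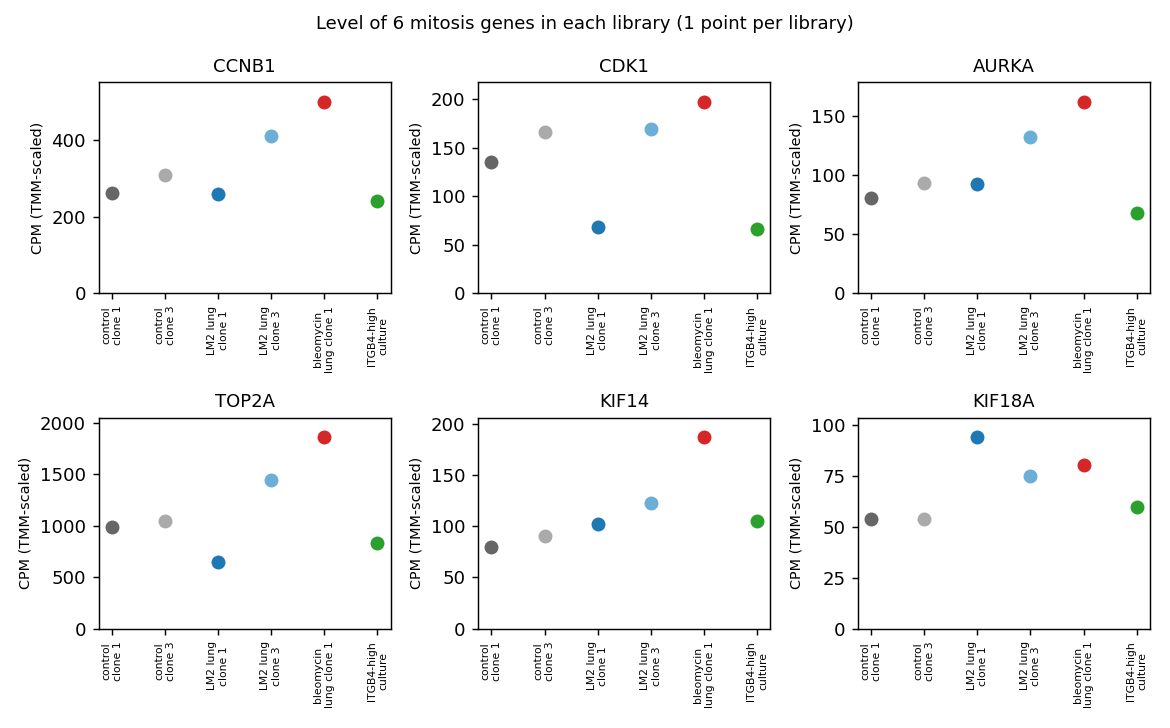
CPM of 6 mitosis genes in each library, 1 point per library, on axes starting at 0. TOP2A runs from 652 in LM2 clone 1 to 1862 with bleomycin, whereas KIF18A is highest in LM2 clone 1 at 94.2 and lowest in the controls at 53.9 and 53.7.

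The bleomycin cells were then tested against the controls with edgeR's quasi-likelihood test, in a fit that takes the spread from both pairs of clones. No gene of the 53 passed an adjusted p of 0.05 (0.0255% of all tested genes did), and 50 of 53 (47.8% of all genes) had a positive fitted change, with a median of 0.51 (1.43-fold). At an unadjusted p under 0.05 there were 11, none lower, against 6.65% and 7.8% of all genes: CCNB1, CCNA2, CDC25B, AURKA, NEK2, BUB1, CENPE, KIF2C, KIF14, KIF18A and HMMR. The largest fitted values were KIF14 (1.14 ± 0.18 (SE), adjusted p = 0.160), DLGAP5 (1.12 ± 0.43 (SE), adjusted p = 0.350) and BUB1 (1.00 ± 0.28 (SE), adjusted p = 0.268), on the log2 scale. The lowest were FOXM1 at -0.07, SPC25 at -0.05 and BIRC5 at -0.03. DESeq2 called CDC25B and KIF14 (2 of 53, where 3.7% of all genes were called), and limma-voom called 0 of the 53 (0.0191%). Without the filter on low counts edgeR called 14, against 4.3% of all genes.

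The number of calls turned on the LM2 pair. Without LM2 clone 1, when the controls alone give the spread and the lone bleomycin library is taken to vary as they do, edgeR called 39 of the 53 as higher with bleomycin, where 28.1% of all genes were called. Without LM2 clone 3 it called 40, against 27.2%, and with either control left out it called 0, as for all genes. In both fits CCNB1, CDC25C, PLK1, BUB1, TTK, CENPA, ASPM and TOP2A were among the genes called, and ANLN, BIRC5, FOXM1, KIF11, KIF20A, KIF23, MKI67, NCAPG and SPC25 were among those not called. With the clone as a replicate block, 0 were called (0.051% of all genes were) and the median change was 0.74, against -0.03 for all genes. That block fits 1 clone difference shared by the control and LM2 pairs.

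With LM2 cells as a group, fitted changes lay on both sides of 0. Of the 53, 0 were called by edgeR (0.0319% of all genes were), 32 had a positive and 21 a negative fitted change (49.2% and 50.8% of all genes), and the median was 0.05 (1.03-fold). CDC25B and KIF18A had an unadjusted p under 0.05, against 7.29% of all genes as higher, and no gene of the set did as lower (8.33%), with KIF18A at 0.65 ± 0.16 (SE), adjusted p = 0.243 and CDC25B at 0.51 ± 0.16 (SE), adjusted p = 0.281 by edgeR. The lowest were KIF20A at -0.40, SPC25 at -0.38 and CDK1 at -0.34. DESeq2 and limma-voom called 0 of the 53, where 4.13% and 0.0128% of all genes were called, and edgeR without the filter called KIF18A, where 5.25% were.

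The LM2 libraries lay on opposite sides of the controls, and the level of TOP2A was 1047 ± 559 CPM (SD, n = 2) with LM2 against 1014 ± 41.8 CPM (SD, n = 2) in the controls. Without LM2 clone 1, leaving clone 3 alone, edgeR called 21 genes as higher (11.6% of all genes were called), with a median of 0.34. Without LM2 clone 3, leaving clone 1 alone, it called 27 as lower and CDC25B and KIF18A as higher (40.8%), with a median of -0.37. Each lone library was taken to vary as the controls do. NUF2, UBE2C, CENPA, KIF22 and TOP2A were called in both fits with opposite signs.

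Bleomycin cells were also set directly against LM2 cells. By edgeR no gene was called, of the 53 or of all tested genes (0%), and 52 of 53 (47.2% of all genes) were higher with bleomycin, with a median of 0.45 (1.37-fold). KIF14 (0.74 ± 0.18 (SE), adjusted p = 0.926) and BUB1 (0.74 ± 0.28 (SE), adjusted p = 0.926) had an unadjusted p under 0.05 as higher in edgeR and no gene of the set as lower, against 2.04% and 2.58% of all genes. DLGAP5 at 1.10, ASPM at 0.91 and KIF20A at 0.90 had the largest changes, and KIF18A at -0.07, PRC1 at 0.06 and FOXM1 at 0.06 the lowest. DESeq2 and limma-voom called 0 of the 53 (0.357% and 0% of all genes were called), and edgeR without the filter on low counts called DLGAP5, ASPM and TOP2A (0.709%). With an LM2 library left out, each side held 1 library and the controls alone gave the spread, so only the size of the change is given. Without LM2 clone 3, so with clone 1 on both sides, the median change was 0.88, against 0.01 for all genes. Without LM2 clone 1 the median change was 0.17, against -0.01 for all genes.

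All lung-recovered cells were then set together against the controls, in a fit that counts the difference between the bleomycin and LM2 libraries as spread. By edgeR 0 of the 53 were called, against 0.498% of all genes, 44 had a positive and 9 a negative fitted change (50.3% and 49.7% of all genes) and the median was 0.26 (1.20-fold). CDC20, CDC25B, KIF14 and KIF18A had an unadjusted p under 0.05 as higher, against 9.26%, with KIF18A at 0.63 ± 0.14 (SE), adjusted p = 0.111. The lowest were SPC25 at -0.26, BIRC5 at -0.13 and FOXM1 at -0.11. DESeq2 called CDC25B and KIF18A, where 8.15% of all genes were called, and limma-voom called 0 (0.619%). Without LM2 clone 1 edgeR called KIF2C, CDC25B and HMMR (2.5% of all genes), and without the filter it called 6 (6.47%).

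ITGB4-high cells, grown in dishes like the controls, lay below both controls for most of the set. Against the controls 47 of 53 had a negative fitted change (51% of all genes did), with a median of -0.32 (0.803-fold), and 42 of the 53 lay below both controls (45.2% of all genes did). None of the 53 was called by edgeR (0.0893% of all genes were), and NDC80 (-1.40 ± 0.44 (SE), adjusted p = 0.155), NCAPG (-0.93 ± 0.34 (SE), adjusted p = 0.184) and CENPE (-0.56 ± 0.17 (SE), adjusted p = 0.149) had an unadjusted p under 0.05 as lower and none as higher, against 14.2% and 10.4% of all genes. KIF20A at -1.60 and CDK1 at -1.18 were low with NDC80, and KIF14 at 0.31, CDC25B at 0.22 and KIF18A at 0.15 were the highest. DESeq2 called NDC80 and KIF20A as lower, where 9.68% of all genes were called in either direction, and limma-voom called 0 (0.0128%). Without the filter edgeR called 9 as lower, against 8.14% of all genes in either direction. With an LM2 library left out, the controls alone gave the spread, so only the size of the change is given. The medians were -0.32 without LM2 clone 1 and -0.33 without LM2 clone 3, against -0.02 and -0.03 for all genes. They were -0.43 without control clone 1 and -0.27 without control clone 3. Set side by side with ITGB4-high, LM2 clone 1 had 29 of the 53 genes higher and 24 lower (49.6% of all genes higher), with a median log2 ratio of 0.04.

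**Figure D4:**
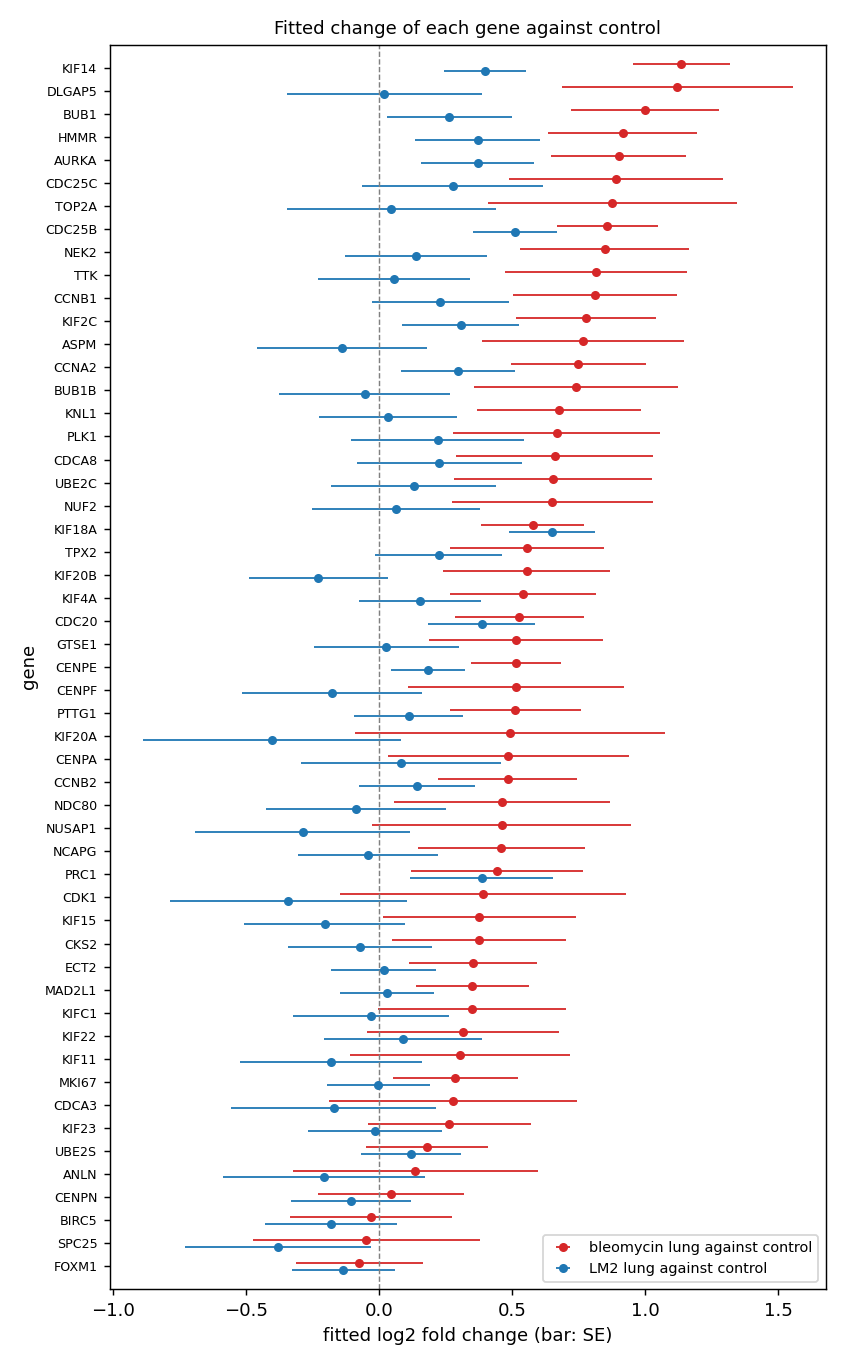
Fitted log2 change of each gene against the controls, with its standard error, with bleomycin in red and LM2 in blue. Bleomycin values are mostly positive, from -0.07 for FOXM1 to 1.14 for KIF14, and LM2 values lie on both sides of 0.

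Other genes of the cycle were read from lists that hold none of the 53. Among 70 other mitosis genes, which include the Aurora B kinase, cohesin guards and further kinetochore proteins, 60 were above their own control with bleomycin, 61 in LM2 clone 3 and 20 in LM2 clone 1, with medians of 0.42, 0.21 and -0.15, where 48.1%, 48% and 46.9% of all genes were above. By edgeR 0 of these 70 were called with bleomycin (0.0255% of all genes were), and 12 had an unadjusted p under 0.05, all higher, against 6.65% of all genes higher and 7.8% lower. HJURP, the chaperone that loads CENPA, was at 63.8 and 75.0 CPM in the controls, 59.6 and 91.9 in the LM2 libraries, 143 in the bleomycin library and 36.7 in ITGB4-high cells. CCNF, cyclin F, was at 30.7 and 30.0 CPM in control, 30.7 and 49.5 with LM2, 62.0 with bleomycin and 29.7 in ITGB4-high cells. Their bleomycin changes were 1.04 and 1.03, the highest of that list, and SKA2 at -0.58 and CENPU at -0.54 were the lowest.

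Genes of the G1/S transition and DNA replication had lower medians than the 53 mitosis genes in each lung library. Of 47, 20 were above their own control with bleomycin, 24 in LM2 clone 3 and 9 in LM2 clone 1, with medians of -0.09, 0.02 and -0.42, where 48.1%, 48% and 46.9% of all genes were above. RRM1, a subunit of ribonucleotide reductase, had the highest bleomycin change (1.16 ± 0.22 (SE), adjusted p = 0.202, edgeR). E2F1, the transcription factor of S-phase entry, was at 20.5 and 22.4 CPM in the controls, 5.65 and 14.9 in the LM2 libraries, 9.15 in the bleomycin library and 13.3 in ITGB4-high cells, and TK1 and E2F1 were the lowest with bleomycin at -0.93 and -1.23. By edgeR 0 of the 47 were called with bleomycin (0.0255% of all genes were). At an unadjusted p under 0.05 there were 2 higher and 1 lower, where 6.65% and 7.8% of all genes were. Whether the mitosis and G1/S lists differ was not tested.

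Of 18 cell cycle inhibitors, 16 were tested and edgeR called 0 in any comparison, where 0% to 0.498% of all genes were called. At an unadjusted p under 0.05, 2 were higher and 3 lower in all lung cells against the controls (9.26% and 11.3% of all genes), and 1 higher and 1 lower with bleomycin (6.65% and 7.8%). CDKN1A, the p21 inhibitor, was at 13.8 and 18.6 CPM in the controls, 63.9 and 27.8 in the LM2 libraries, 44.0 in the bleomycin library and 72.2 in ITGB4-high cells, with every lung library and ITGB4-high above both controls (1.48 ± 0.37 (SE), adjusted p = 0.130 by edgeR in all lung cells). CDKN1A was highest, among lung libraries, in LM2 clone 1, where the mitosis genes were lowest. The bleomycin library, where the mitosis genes were highest, had more CDKN1A than LM2 clone 3. A link between CDKN1A and the mitosis genes was not tested. GADD45A, a stress-induced brake on CDK1, was at 198 and 167 CPM in control, 536 and 274 with LM2, 235 with bleomycin and 345 in ITGB4-high cells. CDKN2C, the p18 inhibitor of CDK4 and CDK6, was at 39.3 and 60.0 CPM in the controls, 9.44 and 33.4 in the LM2 libraries, 21.5 in the bleomycin library and 8.16 in ITGB4-high cells, below both controls in every other library.

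**Figure D5:**
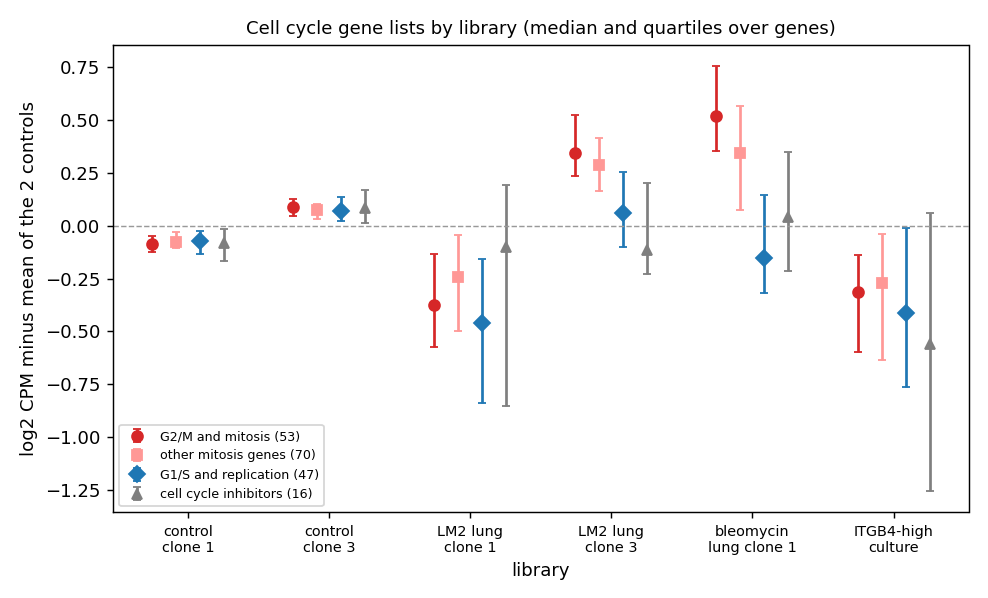
Median and quartiles, over the genes of each list, of the log2 CPM minus the mean of the controls, by library. With bleomycin the mitosis lists lie above 0 and the G1/S list just below, and in LM2 clone 1 the medians of the set, the other mitosis genes and the G1/S genes are -0.37, -0.24 and -0.46.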

How the data were processed

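Per the labels' protocols, a KAPA mRNA HyperPrep kit that marks strand was used on polyadenylated RNA. The submitters' processing notes name STAR 2.7.1a and hg38. The authors deposited raw whole-number counts per gene. How reads were counted, with which annotation and strand setting, is not given in the sources used here. Of 58336 gene identifiers, 58216 matched GENCODE release 29, used for symbols, lengths and coordinates.

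CPM used TMM factors, and 3 counts (the limit a count of 0 allows, for counting error only) came to 0.138 to 0.232 CPM. Ratios to the control of the same clone used log2 CPM with a prior count of 2. Tests were edgeR 4.0.16 quasi-likelihood (R 4.3.3) on all 6 libraries, filterByExpr at a minimum count of 10, Benjamini-Hochberg adjustment over 15673 genes and a threshold of 0.05. A fit with 4 groups had 2 residual degrees of freedom, and one with lung libraries joined had 3. The code was tested on simulated data. Alternatives were RLE factors, no filter, DESeq2 1.42.0, limma-voom (limma 3.58.1), the clone as a block, each library left out and, chosen after seeing the data, other scalings of the ratios. Per the titles, libraries with the same number share a clone, and the clone deviations of the control and LM2 pairs had a correlation of 0.00115 across genes. Both pairs differed beyond sampling noise (chi-square per degree of freedom 4.89 and 42.7).

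Given library by library were 30 genes chosen by role and the 3 highest and 3 lowest in each comparison, and other genes by group. The members, lists and rules were chosen with earlier results of these data known.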

Additional observations from a re-analysis of the deposited data

Results flagged for a closer look

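The LM2 libraries lay on opposite sides of their own controls. The median log2 ratio of the 53 mitosis genes was -0.28 in LM2 clone 1 and 0.28 in LM2 clone 3. Of the 53 genes, 40 were lower in the first and higher in the second, against 17.3% of all tested genes. These results were picked out because most genes of the set were below the control in one clone and above it in the other. The difference was not tested, since each clone has 1 LM2 library and 1 control.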

How the results depend on the processing

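Clone numbers pair the libraries. A replicate block fits 1 clone difference shared by the control and LM2 pairs, whose clone deviations had a correlation of 0.00115. Without a block, the median log2 ratio of the bleomycin library to the control of its own clone was 0.61. With a replicate block for clone the bleomycin median against control was 0.74, with 0 of the 53 genes called by edgeR in any of the 5 comparisons. Of all genes, it called 0.249% (all lung cells), 0.23% (LM2), 0.051% (bleomycin), 2.32% (ITGB4-high) and 0% (bleomycin against LM2). Beside 0 calls by edgeR in each comparison, the fit without the filter on low counts called 6 (all lung cells), 1 (LM2), 14 (bleomycin), 9 (ITGB4-high) and 3 (bleomycin against LM2), where 6.47%, 5.25%, 4.3%, 8.14% and 0.709% of all genes were called. DESeq2 called 2 in all lung cells, 2 with bleomycin and 2 in ITGB4-high cells, where 8.15%, 3.7% and 9.68% of all genes were called. RLE factors and limma-voom called 0 throughout, where 0% to 0.504% and 0% to 0.619% of all genes were called. Leaving out 1 library gave 0 to 3 calls for all lung cells, 0 to 29 for LM2, 0 to 40 for bleomycin, 0 to 29 for ITGB4-high and 0 to 47 for bleomycin against LM2. In the same fits 0% to 6.55%, 0% to 40.8%, 0% to 28.1%, 0% to 42% and 0% to 19.2% of all genes were called. The high counts came without an LM2 library, when the controls alone give the spread. Over all the fits with 1 library left out, medians ran from 0.05 to 0.44 for all lung cells and -0.37 to 0.34 for LM2. They ran from 0.48 to 0.60 for bleomycin, -0.43 to -0.27 for ITGB4-high and 0.17 to 0.88 for bleomycin against LM2. In LM2 against control, 9 genes took the opposite sign, and were called, without LM2 clone 3. The values without LM2 clone 3 and without LM2 clone 1 were -0.37 and 0.39 for TTK, -0.37 and 0.50 for UBE2C, -0.44 and 0.44 for NUF2, -0.35 and 0.34 for KNL1, -0.56 and 0.53 for CENPA, -0.38 and 0.45 for KIF22, -0.57 and 0.44 for DLGAP5, -0.62 and 0.51 for TOP2A, and -0.37 and 0.34 for GTSE1. Scaling by library total alone moved the median ratio in LM2 clone 1 to -0.41, and the all-gene median there to -0.16. The number of genes above their own control was 7 to 13 in LM2 clone 1 and 49 to 51 in LM2 clone 3 over 4 scalings, and 53 with bleomycin under each. Of all tested genes, 39.3% to 48.8%, 48% to 54.5% and 45.7% to 49.4% were above in these libraries. With 1 library per clone and group, a difference between clones has no replicate check at any depth.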
